A study of Mus musculus with 6 samples.

Results

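The enzymes that build the glycosaminoglycan linkage region and polymerize the heparan sulphate chain were examined in E14.5 lacrimal gland buds of 3 control and 3 Pea3 TKO samples. The members were the rows of the count tables whose symbol is Xylt1, Xylt2, B4galt7, B3galt6, B3gat3, Fam20b, Ext1, Ext2, Extl2 or Extl3, which gave 10 of 23420 genes. Control samples carried the Le-Cre transgene alone by their genotype label, although their titles read WT. Pea3 TKO samples carried Le-cre with Pea3-/-, Ermfl/fl and Er81fl/fl, where Pea3 is Etv4, Erm is Etv5 and Er81 is Etv1. The Pea3 allele is thus a null in every cell of the embryo, whereas Erm and Er81 are deleted only where Le-Cre is active, in the epithelium of the ocular surface and lacrimal gland. All 6 samples shared Le-Cre, the age and a mixed strain background, and each was epithelium collected by laser capture, whose RNA was amplified and counted per gene without normalization. The labels do not say whether replicates came from separate embryos or from pools, so p-values measure only the spread between these samples.

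Heparan sulphate and chondroitin sulphate chains hang on their core proteins by a common tetrasaccharide of xylose, galactose, galactose and glucuronic acid. Xylosyltransferases place the xylose on a serine of the core protein, B4galt7 and B3galt6 add the galactoses, B3gat3 adds the glucuronic acid, and the kinase Fam20b phosphorylates the xylose. Extl3 then starts a heparan sulphate chain, and a complex of Ext1 and Ext2 extends it with alternating glucuronic acid and N-acetylglucosamine. In branching glands heparan sulphate is a co-receptor for Fgf10, the signal from the mesenchyme that induces the lacrimal bud.

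Total counts per sample ran from 14194775 to 17860140, and 3 counts corresponded to 0.17 to 0.21 counts per 1000000 reads (CPM). CPM are given on library sizes scaled by the trimmed mean of M-values (TMM). Differences are log2 fold changes of Pea3 TKO over control, with their standard error (SE), from edgeR's quasi-likelihood test fitted on all 13087 genes that passed its low-count filter, with p-values adjusted over all of them (Benjamini-Hochberg, threshold 0.05). The targeted genes Etv5, Etv4 and Etv1 were lower in every Pea3 TKO sample than in any control, by 7.6-, 7.8- and 3.3-fold. Of 10 markers of bud and surface epithelium, Cdh1 and Epcam among them, all 10 passed the low-count filter, and their summed level was 3799 to 4583 CPM in control and 6027 to 6968 CPM in Pea3 TKO. Of these markers 7 were called higher, Krt8, Krt18 and Cdh1 among them, while Sox10, a factor of the lacrimal bud, was called lower, at 380 to 392 CPM in control and 49.5 to 105.5 CPM in Pea3 TKO (log2 fold change -2.43, adjusted p = 2.2e-04). Y-linked transcripts were abundant in the 3 control samples and in Pea3 TKO replicate 3, whereas Pea3 TKO replicates 1 and 2 had Xist at 106.4 and 32.5 CPM and Ddx3y at or below 0.14 CPM.

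All 10 members passed the low-count filter, and 1 of them, Ext1, was called, lower in Pea3 TKO. Across all tested genes 25.0% were called in either direction and 11.3% were called lower, so the 10% of members called was below the background of calls and near that of lower calls. No member was called higher by edgeR, DESeq2 or limma voom, and 1, Extl2, was higher at an unadjusted p under 0.05 by each of these tools. The median log2 fold change of the members was -0.15, against 0.01 over all tested genes, with 7 members on the lower and 3 on the higher side. The groups did not overlap for 4 members, Ext1 and Xylt2 lower and B3gat3 and Extl2 higher. Over all tested genes 43.9% were without overlap, 21.3% lower and 22.5% higher, so 2 members in each direction was close to the background. Of the 9 members not called, 8 had a 95% interval that lay within 1 log2 unit either way, and the exception was Xylt1, which was barely detected.

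**Figure D1:**
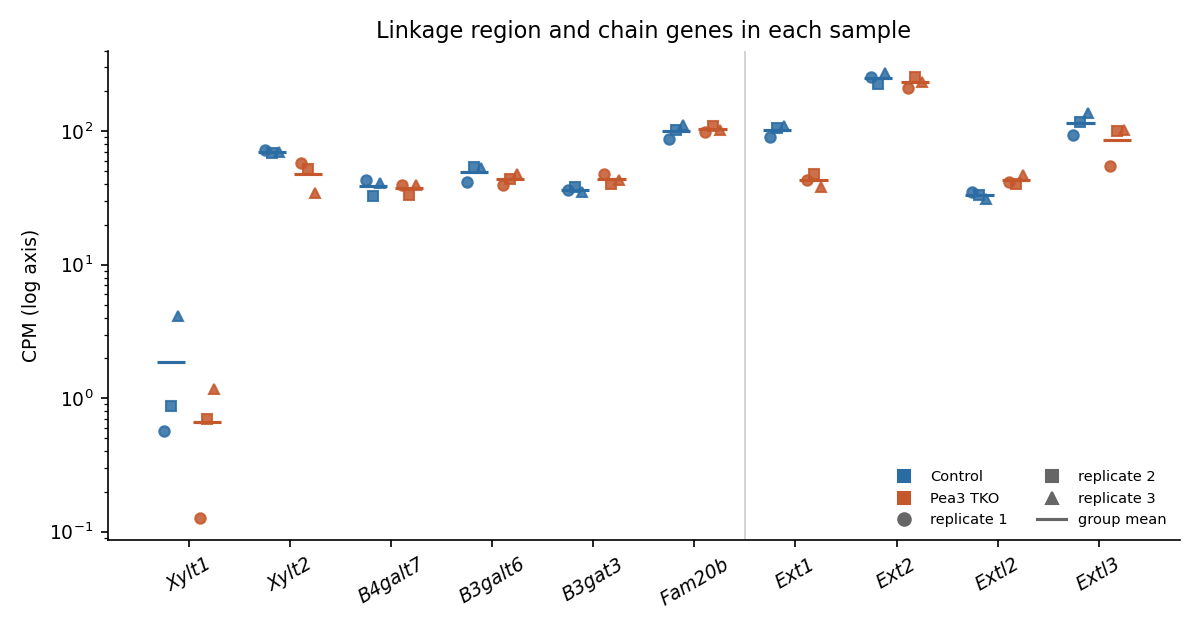
Expression of the 10 members in each sample, as TMM-scaled CPM on a log axis, with control in blue, Pea3 TKO in orange, 1 symbol per replicate and a bar at the group mean. The linkage region genes stand left of the vertical line and the chain genes right of it. Ext1 is the gene whose groups lie far apart, at 89.9 to 110.0 CPM in control and 38.2 to 48.0 CPM in Pea3 TKO, and Xylt1 is the one near the floor.

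**Figure D2:**
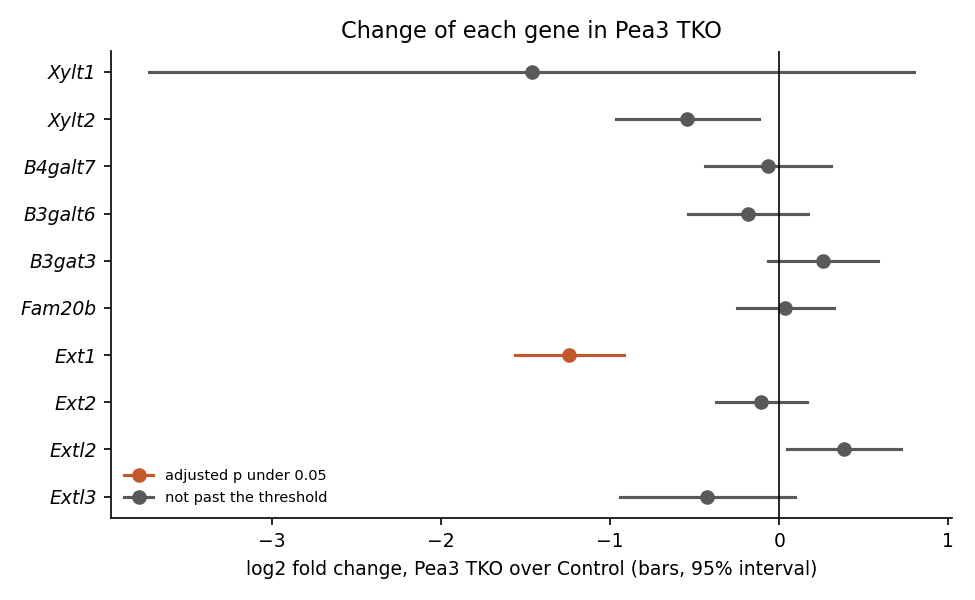
Log2 fold change of Pea3 TKO over control for each member (points) with its 95% interval (bars) from the edgeR fit on all genes. Orange marks an adjusted p under 0.05, which Ext1 alone reached at -1.24, while the intervals of Xylt2 and Extl2 leave out 0 before adjustment for all genes.

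Ext1, a subunit of the heparan sulphate polymerase, lies on chromosome 15 from 53064038 to 53346159 (GRCm38, minus strand) and has 11 exons in its longest coding transcript. Reads assigned to Ext1 numbered 1595, 1697 and 1691 in the controls (replicates 1 to 3, the order used throughout) against 680, 686 and 650 in Pea3 TKO. Scaled to CPM, the control values were 89.9, 105.8 and 110.0, and the Pea3 TKO values were 43.2, 48.0 and 38.2. Every Pea3 TKO sample was below every control sample, and the highest of them was well under the lowest control. Ext1 transcripts fell by 57.7% (95% interval of the change -66.2 to -47.0%), at a log2 fold change of -1.24 (SE 0.15, adjusted p = 4.9e-04), and 4.1% of tested genes had a lower fold change. The spread between replicates was similar in both groups, with a coefficient of variation of 10.4% in control and 11.4% in Pea3 TKO. The study had itself singled out Ext1 in these samples, so its direction here is not independent evidence. From bulk counts, fewer cells that express Ext1 and less Ext1 RNA per cell cannot be told apart.

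Several other measures differed between the groups or between replicates, and Ext1 is given beside them. Markers of epidermis and conjunctiva were higher in Pea3 TKO for 6 of 6 genes, with sums of 331 to 1464 CPM in control and 5225 to 7511 CPM in Pea3 TKO. The highest control sum was that of control replicate 1, which also had the lowest control Ext1, and without it the log2 fold change of Ext1 was -1.33 (edgeR adjusted p = 2.4e-04). The part of the epidermis and conjunctiva markers in the change of Ext1 was not tested. Markers of periocular mesenchyme and fibroblasts, of which Dcn and Lum were called higher among 12 tested, summed to 239 to 320 CPM in control and to 692, 865 and 274 CPM in Pea3 TKO replicates 1 to 3. Foxc1 made up most of the control sums and 259 CPM of the sum in replicate 3. Without Foxc1 the sums were 21.03, 34.8 and 136.0 CPM in control and 421.1, 586.4 and 15.2 CPM in Pea3 TKO. Ext1 in Pea3 TKO replicate 3, the lowest of the group in these markers, was 38.2 CPM, and the part of the mesenchyme markers in the change of Ext1 was not tested. Replicate 3 was also the 1 Pea3 TKO sample with Y-linked transcripts. With the mean level of the Y-linked genes as a covariate, Ext1 had a log2 fold change of -1.42 (edgeR adjusted p = 0.0062), a fit in which that single sample separates the covariate from the group. Macrophage, blood, endothelial and muscle markers each summed to at most 17.1 CPM in every sample, and Tie1, Emcn, Hba-a1 and Hba-a2 were at 0 in all 6. Of the listed markers, 4 of 6 for blood and 4 of 5 for macrophages were among the counted genes. The blood marker Alas2 was at 12.8 CPM in control replicate 1 and at 16.4 CPM in Pea3 TKO replicate 3. Schwann cell and melanocyte markers summed to 61.0 to 87.5 CPM, nearly all of it Mbp. The profile nearest to that of Ext1 across the 6 samples was that of Sema4a, followed by Pcdh18 and Inpp5b, at root mean square differences of 0.08, 0.09 and 0.09 in centred log2 CPM.

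Ext2, the obligate partner of Ext1 in the polymerase, lies on chromosome 2 from 93661028 to 93822568 (minus strand, 14 exons). It was measured at 254.4, 226.9 and 272.8 CPM in control and at 211.5, 254.2 and 234.6 CPM in Pea3 TKO, so the groups overlapped. Its log2 fold change was -0.11 (SE 0.12, adjusted p = 0.56), with an interval of the change from -23.0 to 12.0%. A loss of Ext2 as large as that of Ext1 lies outside this interval. Within each sample, reads of Ext1 made up 28.9% ± 2.8 (SD, n = 3) of the reads of Ext1 and Ext2 together in control and 15.6% ± 1.5 (SD, n = 3) in Pea3 TKO. The log2 ratio of Ext1 to Ext2, which does not depend on library size or scaling, was -1.50, -1.10 and -1.31 in control and -2.29, -2.40 and -2.62 in Pea3 TKO. It was 1.13 log2 units lower in Pea3 TKO, with no overlap between the groups (two-sided exact permutation test, p = 0.10, the smallest that 3 against 3 allows, and 0.15 after adjustment over 3 ratios).

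**Figure D3:**
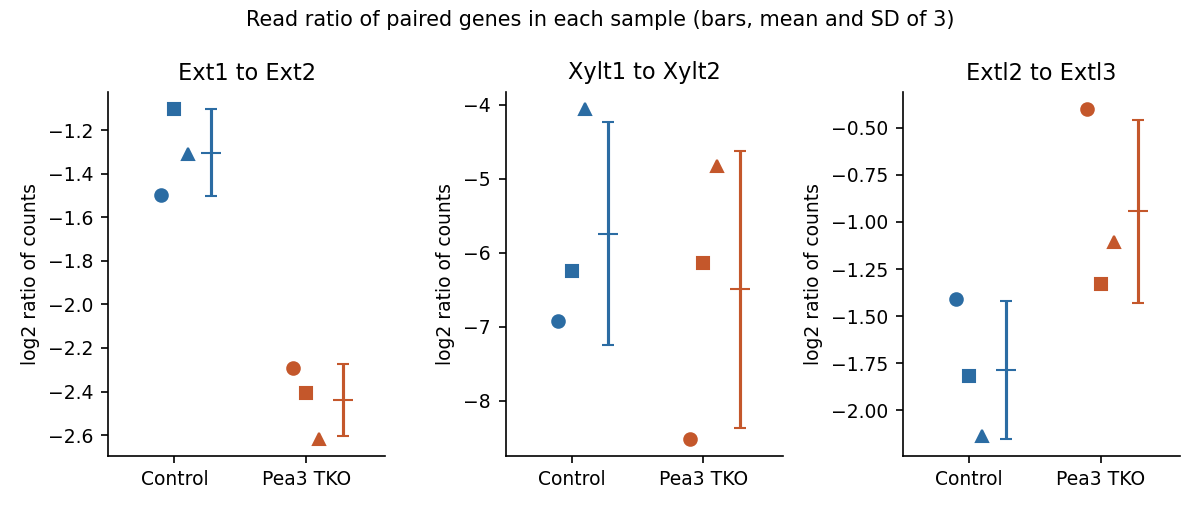
Log2 ratio of the read counts of 3 gene pairs in each sample, control in blue and Pea3 TKO in orange, with the mean and SD of 3 samples beside the points and each panel on its own scale. The Ext1 to Ext2 ratio separates the groups, at -1.50 to -1.10 in control against -2.62 to -2.29 in Pea3 TKO, the Extl2 to Extl3 ratio does so by a narrow gap, and the Xylt1 to Xylt2 ratio overlaps.

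Extl3, the transferase that adds the first N-acetylglucosamine and so commits the linkage region to heparan sulphate, lies on chromosome 14 from 65052060 to 65149855 (minus strand, 7 exons). It was measured at 93.3, 117.7 and 136.1 CPM in control and at 55.3, 101.2 and 101.7 CPM in Pea3 TKO. Pea3 TKO replicate 1 was low, while the other replicates of that group lay within the control range. The log2 fold change was -0.43 (SE 0.23, adjusted p = 0.21), and without Pea3 TKO replicate 1 it was -0.19. The interval of the change, from -48.0 to 6.5%, reaches to a decrease of sizeable extent. With the Y-linked covariate the log2 fold change of Extl3 was -0.22 (edgeR adjusted p = 0.76). In that fit Pea3 TKO replicate 3 alone separates the covariate from the group.

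Extl2, whose product can add N-acetylglucosamine to a phosphorylated linkage region and so stop its extension, lies on chromosome 3 from 116007462 to 116029017 (plus strand, 5 exons). Its values were 35.1, 33.4 and 30.9 CPM in control and 42.0, 40.3 and 47.3 CPM in Pea3 TKO. All Pea3 TKO samples were above all controls, by a margin similar to the spread within the groups. The log2 fold change of 0.38 (SE 0.15) had an unadjusted p of 0.030 and an adjusted p of 0.092, so Extl2 did not pass the threshold. The log2 ratio of Extl2 to Extl3 was -1.79 ± 0.37 (SD, n = 3) in control and -0.94 ± 0.49 (SD, n = 3) in Pea3 TKO, 0.84 higher in Pea3 TKO (exact permutation p = 0.10, adjusted over 3 ratios p = 0.15). Control replicate 1 at -1.41 and Pea3 TKO replicate 2 at -1.33 were close to each other.

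Xylt2 was the predominant xylosyltransferase of these buds. It lies on chromosome 11 from 94663851 to 94677515 (minus strand, 11 exons) and was measured at 71.9, 68.7 and 69.6 CPM in control. In Pea3 TKO it was at 58.2, 51.8 and 34.2 CPM, below every control and with a far wider spread, a coefficient of variation of 25.8% against 2.3%. The log2 fold change was -0.54 (SE 0.19, adjusted p = 0.062), which did not pass the threshold, with a 95% interval of the change from -48.9 to -8.0% before adjustment. It passed with DESeq2 (adjusted p = 0.034) and with limma voom (adjusted p = 0.036). With the Y-linked covariate the log2 fold change was -1.02 (edgeR adjusted p = 0.021). In that fit Pea3 TKO replicate 3, the lowest in Xylt2, alone separates the covariate from the group. Much of the -0.54 came from Pea3 TKO replicate 3, without which the log2 fold change was -0.35. Without Pea3 TKO replicate 1 it was -0.71 and passed (edgeR adjusted p = 0.042). Xylt1, on chromosome 7 from 117380979 to 117673580 (plus strand, 12 exons), had 10, 14 and 64 counts in control and 2, 10 and 20 in Pea3 TKO. Most of its control level came from control replicate 3, at 4.2 CPM against 0.56 and 0.87 CPM. The log2 fold change of -1.46 had a standard error of 1.01 (adjusted p = 0.33) and moved to -0.10 without that sample, so a change of Xylt1 was not detectable at this depth. In control, Xylt1 supplied 2.6% ± 2.7 (SD, n = 3) of the reads of both genes.

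Both galactosyltransferase genes had overlapping groups. B4galt7, which adds the first galactose, lies on chromosome 13 from 55599896 to 55610443 (plus strand, 5 exons) and was measured at 43.4, 33.0 and 40.8 CPM in control and 39.4, 33.3 and 39.3 CPM in Pea3 TKO. The Pea3 TKO range lay within the wider control range, and the log2 fold change was -0.07 (SE 0.17, adjusted p = 0.81). B3galt6, a gene of 1 exon on chromosome 4 from 155989466 to 155992649 (minus strand) that adds the second galactose, was at 41.6, 54.2 and 53.0 CPM in control and 39.4, 43.6 and 47.6 CPM in Pea3 TKO. Its log2 fold change was -0.19 (SE 0.16, adjusted p = 0.43), with an interval from -31.3 to 12.4%.

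B3gat3, the glucuronyltransferase that completes the tetrasaccharide, lies on chromosome 19 from 8920374 to 8927236 (plus strand, 5 exons). It was measured at 36.4, 38.1 and 34.9 CPM in control and at 47.9, 40.3 and 42.9 CPM in Pea3 TKO, without overlap. The log2 fold change was 0.26 (SE 0.15, adjusted p = 0.22), and the interval ran from -0.06 to 0.58 on the log2 scale. Fam20b, the xylose kinase, lies on chromosome 1 from 156678532 to 156719086 (minus strand, 9 exons) and was at 87.7, 101.7 and 111.8 CPM in control and 98.0, 108.9 and 102.0 CPM in Pea3 TKO. Of the 10 members its log2 fold change was nearest to 0, at 0.04 (SE 0.13, adjusted p = 0.87), with an interval of the change from -16.0 to 25.2%. The phosphatase that removes the same phosphate, Pxylp1 (Acpl2 in the tables), had a log2 fold change of -0.27 (SE 0.27, adjusted p = 0.51).

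Levels of different genes were compared per length, as RPKM, which is the CPM divided by the length in kilobases of the union of annotated exons. In control, Ext2 stood first at 34.3 ± 3.2 RPKM (SD, n = 3), with every sample above every sample of the next gene. Extl3 at 19.1 ± 3.5 and Xylt2 at 17.6 ± 0.4 RPKM followed and overlapped each other. B3galt6, B3gat3, B4galt7, Ext1, Fam20b and Extl2 then descended from 15.6 to 9.6 RPKM, each overlapping the next, with Ext1 at 12.6 ± 1.3 RPKM. Xylt1 was last at 0.19 ± 0.21 RPKM. In Pea3 TKO, Ext2 was again first at 31.9 ± 2.9 RPKM and Xylt1 last, and 7 genes lay between 16.9 and 11.7 RPKM, each overlapping the next. Ext1, at 5.3 ± 0.6 RPKM, had dropped below all of these, with no sample overlapping Fam20b just above it. Levels and ranks depend on the length used. With the longest coding transcript in place of the exon union, Ext2 was at 87.5 RPKM in control and 81.3 RPKM in Pea3 TKO, still first, and Xylt1 was still last. By that length B3gat3 was at 22.8 and 27.3 RPKM and Fam20b at 22.2 and 22.7 RPKM in control and Pea3 TKO, which put them at ranks 2 and 3 in both groups. In control this moved B3gat3 from rank 5, Fam20b from rank 8, Extl3 from rank 2 to 5 and B3galt6 from rank 4 to 7, while in Pea3 TKO B3gat3 was at rank 2 by either length. Summed over the 6 linkage region genes, the level was 72.4 ± 2.3 RPKM in control and 67.3 ± 2.6 RPKM in Pea3 TKO (SD, n = 3 each). Summed over Ext1 and Ext2, it was 46.9 ± 3.5 and 37.2 ± 3.2 RPKM, or 100.8 and 86.9 RPKM by the longest coding transcript.

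**Figure D4:**
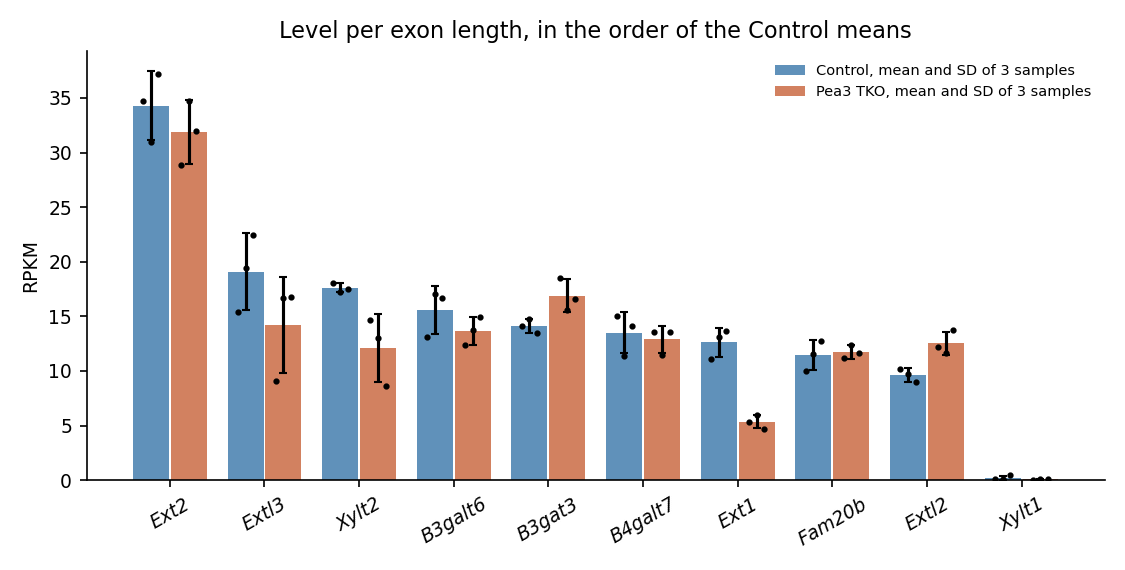
Level of each member per exon length (RPKM, bars from 0 with the mean and SD of 3 samples, dots for samples), control in blue and Pea3 TKO in orange, in the order of the control means. Ext2 is highest in both groups, at 34.3 and 31.9 RPKM, Ext1 goes from 12.6 to 5.3 RPKM, and Xylt1 is close to 0.

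Pea3 factors bind DNA through an ETS domain, whose sites centre on GGAA. The study reported Erm at the Ext1 locus by chromatin immunoprecipitation in postnatal lacrimal gland cells. It also reported that EXT1 could be bound by Pea3 family proteins in human cancer cell lines. RefSeq promoter windows (GRCm38.p6, 250 bases before to 50 after a transcript start) were matched for 7 members, with 8 windows between them, and for Xylt1, Ext1 and Extl3 none was matched. The letters CCGGAA, searched on both strands, were in the windows of 2 of these 7 members, B3gat3 and Extl2, and in those of 16.7% of all 27025 genes with a window. In B3gat3 the matches began 35 and 3 bases before the start on the printed strand. In Extl2 they began 70 bases before the first start, on the opposite strand, and 78 bases before a second start further downstream. The longer match ACCGGAAGT, on either strand, was in none of these windows and in those of 1.2% of genes. B3gat3 and Extl2 were the members with all Pea3 TKO samples above all controls, as were 22.5% of all tested genes, and neither was called. A link between the letters and the values of these 2 members was not tested. The 250 bases upstream are shown for both, with a complete CCGGAA or its reverse complement in capitals, from chr19:8920143-8920392 (plus strand) and chr3:116007199-116007448 (plus strand).
B3gat3: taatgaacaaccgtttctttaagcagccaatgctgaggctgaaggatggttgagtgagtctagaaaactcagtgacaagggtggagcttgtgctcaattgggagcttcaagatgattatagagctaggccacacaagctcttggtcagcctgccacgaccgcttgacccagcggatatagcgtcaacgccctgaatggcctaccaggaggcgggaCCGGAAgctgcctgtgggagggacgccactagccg
Extl2: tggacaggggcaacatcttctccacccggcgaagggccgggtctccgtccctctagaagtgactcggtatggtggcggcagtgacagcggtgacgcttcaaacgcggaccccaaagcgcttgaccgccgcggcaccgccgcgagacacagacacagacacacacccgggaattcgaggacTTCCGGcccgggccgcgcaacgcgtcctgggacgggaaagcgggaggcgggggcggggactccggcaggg

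The other genes of the pathway were counted by lists, whose counts stand beside 25.0% called over all tested genes, 13.6% higher and 11.3% lower. Among 18 genes for sugar nucleotides, the sulphate donor and their transporters, 4 were called higher, 2 lower and 12 were not called, with a median log2 fold change of 0.18. Uap1, which makes the UDP-N-acetylglucosamine that Ext1 and Ext2 polymerize, rose from 70.4, 66.4 and 76.3 to 146.4, 226.8 and 188.4 CPM, or by 1.40 log2 units (SE 0.16, adjusted p = 4.8e-04). Papss2, a synthase of the sulphate donor, rose by 2.97 log2 units (SE 0.54, adjusted p = 0.0042), and Slc35b3, a transporter of that donor, rose by 1.05 (SE 0.16, adjusted p = 0.0018). The genes of this list called lower were Slc35d1, a carrier of nucleotide sugars into the endoplasmic reticulum, and Uxs1, which makes the UDP-xylose that the xylosyltransferases use, both named after their values were seen. Uxs1 was at 17.5, 22.4 and 23.4 CPM in control and 11.2, 13.6 and 14.2 CPM in Pea3 TKO, which is -0.70 on the log2 scale (SE 0.23, adjusted p = 0.047). Slc35d1 fell by 1.28 log2 units (SE 0.28, adjusted p = 0.0093).

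Of 7 tested genes for the linker phosphatase, Extl1 and the chondroitin chain, 1 was called, Chsy1, a chondroitin synthase, which was lower. It went from 61.4, 99.1 and 101.9 to 37.7, 47.8 and 54.2 CPM, which is -0.91 on the log2 scale (SE 0.21, adjusted p = 0.014). Extl1 was at 3.9 to 6.7 CPM in control and 2.3 to 4.1 CPM in Pea3 TKO (adjusted p = 0.36). Among 13 tested heparan sulphate modification enzymes, 6 were called lower and 2 higher. The smallest p-values belonged to the 3-O-sulphotransferases Hs3st1, Hs3st3b1 and Hs3st6, with log2 fold changes of -3.36, -4.83 and -4.94, and Hs3st3a1, named after its value was seen, was at -3.91. Hs3st and Hs6st genes had likewise been singled out by the study in these samples, so their direction is not independent evidence. Of the tested Hs6st genes, Hs6st2 was called lower, with a log2 fold change of -1.53 (adjusted p = 0.0017). Hs6st1 was on the higher side and not called, at 0.26 (adjusted p = 0.17), and both were named after their values were seen. The genes of this list called higher, named after their values were seen, were Hs3st5, another 3-O-sulphotransferase, and Sulf1, an endosulphatase that removes 6-O-sulphate. Hs3st5, at 3.54, was near the floor in control (0.06, 0.75 and 0.39 CPM) and at 4.5, 4.8 and 4.6 CPM in Pea3 TKO. Sulf1, at 2.31, was at 15.5, 5.3 and 5.1 CPM in control and 41.1, 69.2 and 18.9 CPM in Pea3 TKO. Its more abundant relative Sulf2, also named after its value was seen, was called lower (log2 fold change -0.49, adjusted p = 0.013). Sulf2 was at 349.7, 355.2 and 326.9 CPM in control and 232.5, 273.0 and 231.6 CPM in Pea3 TKO. Among 18 tested core protein genes, 4 were called lower and 2 higher. Sdc3 and Gpc3, a syndecan and a glypican, had log2 fold changes of -1.56 (adjusted p = 2.6e-04) and -1.03 (adjusted p = 0.0024), and Sdc1 rose by 0.81 (adjusted p = 0.0022). Of 12 tested degradation genes 2 were called, Ids and Naglu, lysosomal enzymes that dismantle heparan sulphate, which rose by 1.27 (adjusted p = 0.011) and 0.78 (adjusted p = 0.024). Of 11 tested relatives of the linker enzymes that act on other substrates 2 were called lower. They were B4galt4, with a log2 fold change of -1.02 (adjusted p = 0.0046), and Fam20a, a relative of Fam20b that acts in the secretory pathway, which was at 12.1, 6.5 and 11.8 CPM in control and at 0.19, 0 and 0 CPM in Pea3 TKO (adjusted p = 5.4e-04). The median log2 fold changes were -0.27 for the chondroitin list, -0.29 for the modification enzymes, -0.03 for the core proteins, 0.48 for the degradation genes and -0.17 for the relatives, beside 0.01 over all tested genes.

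**Figure D5:**
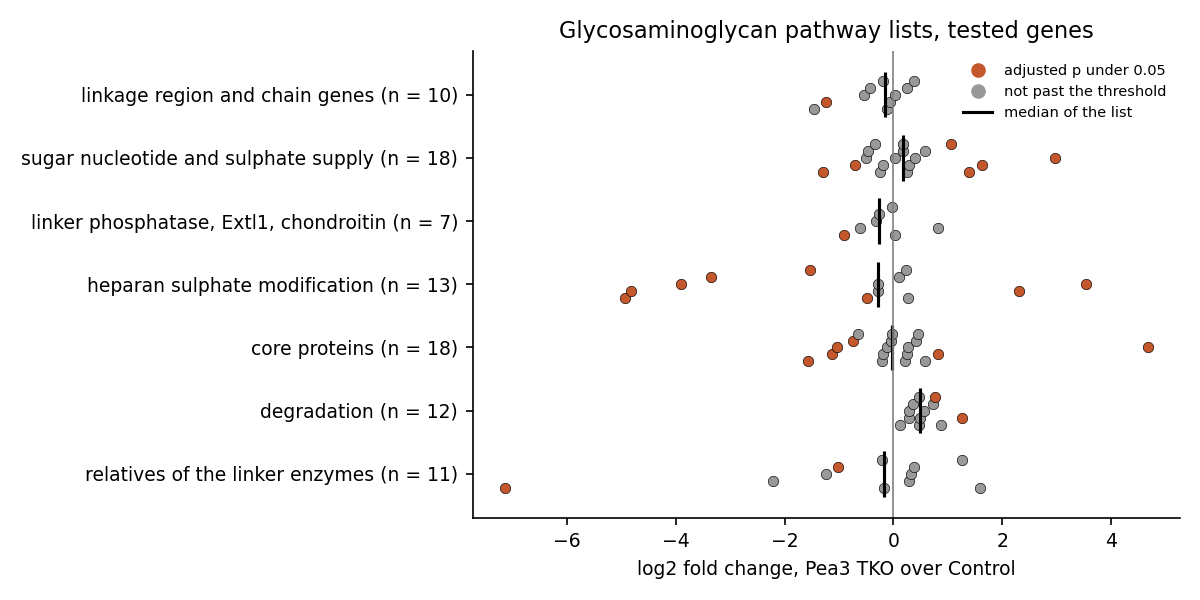
Log2 fold change of Pea3 TKO over control for each tested gene of the members and of the pathway lists (1 point per gene, a bar at each list's median, points spread vertically for legibility). Orange marks an adjusted p under 0.05, which 1 of 10 members and 8 of 13 modification enzymes reached, and the leftmost point, Fam20a, is a fitted value for a gene with almost no counts in Pea3 TKO.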

How the data were processed

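RNA was measured in 3 control and 3 Pea3 TKO samples of E14.5 lacrimal gland epithelium. The authors deposited 1 table per sample, which holds unnormalized read counts under gene symbols. The submitters' processing notes name bcl2fastq 2.17, STAR 2.5.2b, featureCounts 1.5.0-p3, DESeq and mm10, and the annotation and strand setting are not given in the sources used here. Groups and replicate numbers came from the sample titles.

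Genes passing filterByExpr of edgeR 4.0.16 (R 4.3.3) were kept, 13087 of 23420, TMM factors were computed, and the groups were compared by the quasi-likelihood test with group as the only term, Benjamini-Hochberg adjusted over all tested genes. Standard errors are the log2 fold change over the root of F, and 95% intervals use the test's degrees of freedom. The script was tested on simulated counts. RPKM used exon unions of GENCODE M21 (GRCm38, the build of mm10). No exon of a member overlapped a gene of the tables. Acpl2 and Impad1 are the tables' symbols for Pxylp1 and Bpnt2. Nearest profiles used log2 CPM with a prior count of 2, and count ratios an offset of 0.5. Alternatives covered DESeq2 1.42.0, limma 3.58.1 voom, other scalings and filters, a replicate block, a Y-linked covariate and each sample left out. The other exon length was added after the data were seen.

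All 10 members were named, as were the targeted genes, up to 3 called genes of smallest p per pathway list and the 3 nearest profiles of each called member. The members and lists were chosen with earlier results of these data known.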

Additional observations from a re-analysis of the deposited data

How the results depend on the processing

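Ext1 was lower and past the threshold under all 15 alternatives, with log2 fold changes from -1.42 to -1.16. Over the 10 members, 138 of 149 values kept their direction and their side of the threshold, 6 passed it where the reported value had not and 5 changed sign, all of the latter for B4galt7 and Fam20b, whose values were near 0. Xylt2 passed at -0.55 with DESeq2, -0.59 with limma voom, -0.58 with the replicate block and -1.02 with the Y-linked covariate. Extl3 passed at -0.46 with the replicate block (adjusted p = 0.0496). B4galt7 was 0.022 with the Y-linked covariate. That covariate lowered the number of genes called from 3268 to 852, and the cause was not tested. In that fit Pea3 TKO replicate 3 alone separates the covariate from the group, and the SE of Ext1 was 0.21 against 0.15. Leaving out 1 sample at a time gave 1948 to 3344 genes called, -0.71 to -0.35 for Xylt2, -0.18 to 0.016 for B4galt7, -0.054 to 0.12 for Fam20b and -1.59 to 0.26 for the log2 ratio of Xylt1 to Xylt2. The count of genes called was 1963 without control replicate 2, 1948 without control replicate 3 and 2072 without Pea3 TKO replicate 2, fits with fewer samples. That ratio changed sign without control replicate 3 (0.09) and without Pea3 TKO replicate 1 (0.26). The 6 heparan sulphate modification enzymes called lower became 5 to 7, in fits added after the data were seen. Xylt1 had no value under the filter of 5 CPM. Both groups carry the same replicate numbers, and deviations of same-numbered samples from their group means correlated across genes at 0.13, -0.04 and 0.00. No clear pairing by number was seen, and not every sample correlated best with its own number. With 3 samples a group these correlations cannot exclude a pairing. The replicate block called 3191 genes, and for the Ext1 to Ext2 ratio, whose difference of -1.13 a block cannot alter, the exact p went from 0.10 to 0.25, the smallest that 3 pairs allow. With 3 samples a group, members with wide intervals, Xylt1 and Extl3 above all, could hold changes that were not resolved.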
